A study of Mus musculus with 11 samples.

Results

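The genes described here are 10 genes that cells switch on when the kinase ERK is active and that, for the most part, act back on the same pathway: the phosphatase genes Dusp4, Dusp5 and Dusp6, the Sprouty genes Spry1, Spry2 and Spry4, the Spred genes Spred1 and Spred2, and the genes of the ETS transcription factors Etv4 and Etv5. They were taken by name, 10 of the 48440 genes in the count table of cultured neural progenitor cells (NPCs) and 10 of the 32285 genes in each of a pair of single-cell matrices. The list had been drawn up with the comparison of WT and cKO cultures in view, so the values by genotype in those cultures and in the embryos are given as a description, without a test.

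The samples came from mouse embryos of embryonic day E14.5, either WT or with a conditional knockout (cKO) of Syncrip, an RNA-binding protein. In the study's methods the cKO was made with Syncrip fl/fl mice, whose loxP sites flank exons 2, 3 and 4, crossed to Emx1-Cre on a C57BL/6 background. Emx1-Cre recombines in the dorsal pallium, so cells that migrate in from the ganglionic eminence (GE) are not its target. The study uses the term cKO for this cross and names its Nestin-Cre mice separately. The labels themselves give neither the Cre line nor the animals of each culture. The NPC cultures, 3 WT and 3 cKO, were measured by RNA-seq. In the study's methods NPCs were grown from tissue around the lateral ventricles in medium with EGF and bFGF. Passaging is stated there for other assays but not for RNA-seq. For scRNA-seq the dorsal cortex of 1 WT and 1 cKO embryo from the same pregnant mouse was taken, so there is no spread between embryos, and these embryos differed in sex. The labels do not say whether the cultures came from separate animals, so the spread among them may be technical.

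Growth factors such as EGF and the FGFs bind receptor tyrosine kinases, which activate RAS and, through a chain of kinases, ERK. ERK switches on transcription of its own brakes: the DUSP phosphatases remove the phosphates that activate ERK, and Sprouty and Spred proteins act further upstream, below the receptor. ETV4 and ETV5 are ETS factors of the PEA3 group, which are induced by FGF signals and carry the response into the nucleus. In the developing cortex such genes are widely used as a readout of FGF signals.

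Counts per culture ran from 16962903 to 22708400, and mitochondrial genes took 2.91% to 4.80% of them. Y-linked counts were 5903 to 9232 in WT cultures 1 and 2 and cKO culture 1, and at most 1 in the others. Syncrip itself was measured at 77.9, 79.8 and 79.9 CPM (counts scaled to a common library size) in WT cultures against 90.3, 88.7 and 81.5 CPM in those of the cKO. Its log2 fold change, cKO over WT, was 0.13 (SE 0.0750, adjusted p = 0.180, edgeR with Benjamini-Hochberg adjustment). Apical progenitors of the embryos held 315 (WT) and 324 CPM (cKO). Counts over the whole gene and reads at the 3′ end of the transcript do not check a deletion of exons 2 to 4, so genotypes are those of the labels. Read coverage over these exons, which the study displays for its cultures, was not analysed here.

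In the cKO cultures 8 of the 10 genes were higher in each of the 3 cultures than in any WT culture, and the other two, Dusp4 and Spred1, overlapped. Over all 14432 genes tested, 25.7% had all cKO cultures above all WT cultures. In Dusp5, Dusp6, Spry1, Spry4 and Etv4 the log2 fold change was 1.63 to 2.85, while Spry2, Spred2 and Etv5 stayed at 0.88 or less. Summed over the 10 genes, WT cultures held 687, 669 and 623 CPM and cKO cultures 1079, 1065 and 1066 CPM. The median log2 fold change was 1.26 for the 10 genes and 0.00 for all genes tested. Since the list was picked on this comparison, these figures describe it and do not test it. In a bulk culture fewer cells of a type and less RNA per cell cannot be told apart.

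**Figure D1:**
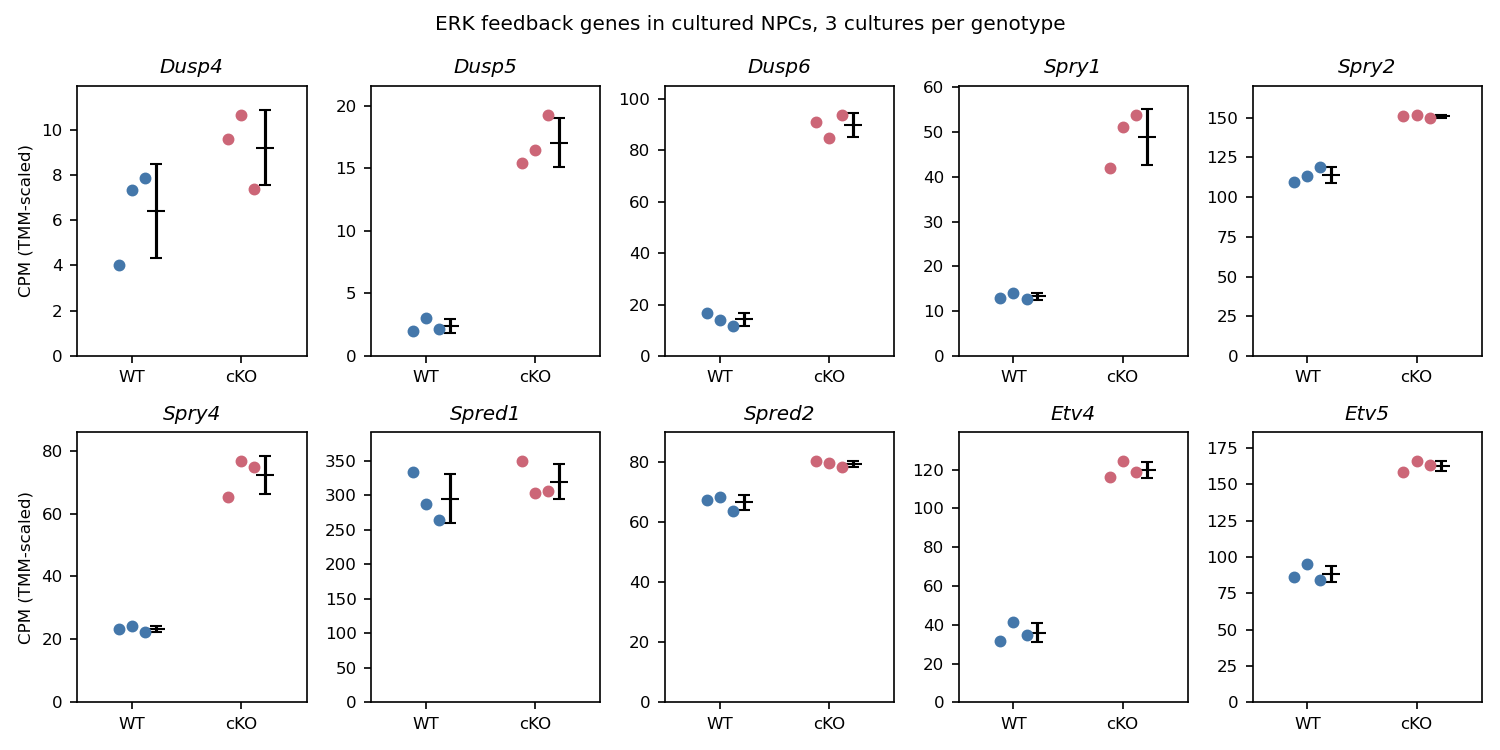
Each panel plots 1 gene, with its level in CPM (TMM-scaled) on a linear axis that starts at 0, the 3 WT (blue) and 3 cKO (red) cultures as points, and the mean with its SD as a bar beside them. Dusp5, Dusp6, Spry1, Spry4 and Etv4 have their cKO points far above the WT points, Spry2, Spred2 and Etv5 are nearer but separate, and the points of Dusp4 and Spred1 overlap.

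The phosphatases held the largest difference of the 10 and also, in Dusp4, a gene whose groups overlapped. Dusp5 (ENSMUSG00000034765, chr19:53529109-53542431, mm10) encodes a nuclear phosphatase selective for ERK. It was measured at 1.98, 3.06 and 2.14 CPM in the WT and 15.4, 16.5 and 19.3 CPM in the cKO cultures. All cKO cultures were above all WT cultures, with means of 2.40 ± 0.584 and 17.1 ± 1.98 CPM (SD, n = 3 each) and a log2 fold change of 2.85 (SE 0.184), a 7.19-fold difference. Only 25 of the 14432 genes tested had a larger log2 fold change.

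Dusp5 was also the one gene, of 7 whose promoter could be read, with CArG boxes there, the element bound by serum response factor, which works with ERK-activated ETS partners at many early response genes. Its stretch is shown because the gene had the largest difference of the 10 and because few promoters carry the element more than once. It lies at chr19:53529059-53529087 (GRCm38.p6, + strand, RefSeq), with the boxes in capitals.

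Dusp5: atacCCATATTTGGCCTTATATGGgcact

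The boxes begin 82 and 72 bases before the RefSeq start of the gene, which differs from the start in the count table given above, and follow each other directly. RefSeq windows from 250 bases before to 50 bases after the start were at hand for 7 of the genes (Dusp5, Dusp6, Spry1, Spry2, Spred1, Spred2 and Etv5, the last with 2 starts). A CArG box, searched on both strands, was found in 1.63% of all 32841 windows of 300 bases, and 6 windows (0.0183%) held 2 or more. The ETS motif CCGGAAG was in 8.86% of all windows, the cyclic AMP element TGACGTCA in 1.79%, the AP-1 motif TGANTCA in 7.81% and the E-box CACGTG in 7.15%, and none of these was in the windows of the 7 genes. The shorter TGACG, which is part of the cyclic AMP element, was in 20.8% of all windows and in those of Dusp5 and Spred2. These are matches of letters in a short window, not measured sites.

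Dusp6 (ENSMUSG00000019960, chr10:99263231-99267488) encodes the cytoplasmic ERK phosphatase that is the most used marker of FGF signalling in embryos. WT cultures held 16.7, 14.1 and 11.8 CPM and cKO cultures 91.0, 84.8 and 93.8 CPM. The groups were far apart, with means of 14.2 ± 2.42 and 89.9 ± 4.61 CPM and a log2 fold change of 2.66 (SE 0.121), and 31 genes had a larger one. Dusp4 (ENSMUSG00000031530, chr8:34807297-34819894), which encodes a nuclear phosphatase that also acts on the related kinases JNK and p38, read 4.01, 7.35 and 7.85 CPM in WT and 9.61, 10.7 and 7.38 CPM in cKO. cKO culture 3 lay inside the WT range, and the log2 fold change was 0.53 (SE 0.227). It was 0.26 without WT replicate 1, the lowest culture, and up to 0.71 with another culture left out. The 3 phosphatases together summed to 21.8 to 24.6 CPM in WT and 112 to 120.5 CPM in cKO.

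The Sprouty genes encode inhibitors that are induced by, and act downstream of, FGF and EGF receptors. Spry1 (ENSMUSG00000037211, chr3:37639947-37644598) was at 13.0, 14.1 and 12.8 CPM in WT and 41.9, 51.1 and 53.9 CPM in cKO cultures. No cKO culture came near the WT range, and the log2 fold change was 1.88 (SE 0.113), with 90 genes above it. Gm42922, annotated antisense to Spry1, had a mean of 2 counts per culture. Spry4 (ENSMUSG00000024427, chr18:38586268-38601268) was at 23.4, 24.2 and 22.4 CPM in WT and 65.2, 76.5 and 74.9 CPM in cKO. Its means of 23.3 ± 0.913 and 72.2 ± 6.14 CPM gave a log2 fold change of 1.63 (SE 0.0991).

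Spry2 (ENSMUSG00000022114, chr14:105891949-105896819) was the most abundant of the 3 and differed least. Its values were 109.5, 113 and 119 CPM in WT and 151, 152 and 149.9 CPM in cKO cultures. Both groups were tight and did not overlap, and the log2 fold change was 0.40 (SE 0.0702).

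The Spred genes encode membrane proteins related to Sprouty that bind neurofibromin and RAS. Spred1 (ENSMUSG00000027351, chr2:117121374-117182279), the gene mutated in Legius syndrome, was at 333, 288 and 265 CPM in WT and 349, 304 and 307 CPM in cKO cultures. WT culture 1 was higher than 2 of the cKO cultures, and the log2 fold change of 0.12 (SE 0.0952) was close to its error. It ran from 0.04, without WT replicate 3 or cKO replicate 1, to 0.21 without WT replicate 1. Spred2 (ENSMUSG00000045671, chr11:19924375-20024026) was at 67.5, 68.6 and 63.7 CPM in WT and 80.3, 79.6 and 78.4 CPM in cKO. These groups did not overlap, but the difference was small, with a log2 fold change of 0.25 (SE 0.0767).

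Of the ETS factors, Etv4 (ENSMUSG00000017724, chr11:101769742-101785371) was at 31.7, 41.4 and 34.8 CPM in WT and 116, 124 and 119 CPM in cKO cultures. Means of 36.0 ± 4.95 and 119.6 ± 4.16 CPM gave a log2 fold change of 1.74 (SE 0.0976). Etv5 (ENSMUSG00000013089, chr16:22381309-22439719) was at 86.0, 94.8 and 84.1 CPM in WT and 159, 166 and 163 CPM in cKO. Its groups were as clearly apart, at a smaller log2 fold change of 0.88 (SE 0.0740).

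Set per length, on the exons of GENCODE M21, the genes changed order between genotypes. In WT cultures Spry2 (54.7 FPKM), Spred1 (43.5 FPKM) and Etv5 (21.5 FPKM) led, and Dusp6 (4.54 FPKM), Dusp4 (2.34 FPKM) and Dusp5 (0.969 FPKM) were the lowest. Neighbours in this order whose cultures overlapped were Spry4 with Spry1 and Spry1 with Dusp6. In cKO cultures Dusp6 had moved up to 28.7 FPKM, above Spred2 (17.2 FPKM), and Etv4 (38.5 FPKM) overlapped with Etv5 (39.6 FPKM), as did Spred2 with Spry1 and Spry1 with Spry4. The lowest in cKO was Dusp4 at 3.36 FPKM, below Dusp5 at 6.90 FPKM. The mean over the 3 cultures is given in each case.

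Other genes of the pathway, which are not among the 10, were tested across all 14432 genes with edgeR's quasi-likelihood test. Of 95 genes on 6 lists, 94 were in the table and 82 passed the filter on low counts; 30 rose and 16 fell in cKO at an adjusted p of 0.05, and 36 did not pass. Over all genes tested 39.5% passed, 19.7% higher and 19.8% lower. The median log2 fold change of the 82 was 0.10. The lists were put together with earlier results on these cultures known.

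Among the relatives of the 10 genes, 5 of 10 rose and 3 fell. Dusp1, an early response phosphatase for p38 and JNK, rose from between 11.1 and 12.4 CPM in WT to 55.6, 61.8 and 60.2 CPM, a log2 fold change of 2.33 (SE 0.0986, adjusted p = 1.68e-09, edgeR with Benjamini-Hochberg adjustment). Etv1, the third factor of the PEA3 group, rose from a mean of 177 to 361 CPM (log2 fold change 1.03, adjusted p = 6.79e-06, edgeR). Dusp10 rose by 1.01 and Dusp7, an ERK phosphatase of the cytoplasm like Dusp6, fell by 0.89 on the log2 scale (edgeR adjusted p = 6.33e-05 and 1.30e-05).

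Of 10 other genes known to follow ERK activity, 8 rose and 1 fell. Fosl1, an AP-1 subunit, rose by a log2 fold change of 1.46 and Lrig1, a brake on EGF receptors, by 1.04, from 345 to 709 CPM (edgeR adjusted p = 7.52e-06 and 2.60e-07). Errfi1, another inhibitor of EGF receptors, rose by 0.58 and Phlda1 by 0.57 (edgeR adjusted p = 3.97e-04 and 0.00948), the latter not past the threshold without cKO replicate 3.

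The components upstream of ERK moved in both directions. Of 12 receptors, 5 rose and 3 fell: Erbb4, a neuregulin receptor, had a log2 fold change of 1.07 (210 to 440 CPM, edgeR adjusted p = 1.35e-06) and Ntrk2, the receptor of BDNF, of -1.05 (1997 to 965 CPM, edgeR adjusted p = 1.00e-06). Egfr, the receptor of the EGF in the medium, had a log2 fold change of 0.13 and did not pass (edgeR adjusted p = 0.254). Pdgfrb fell by 0.73 and Erbb2 rose by 0.38 on the log2 scale, and the call on Erbb2 was lost without WT replicate 1, cKO replicate 1 or cKO replicate 2, where the value ran from 0.27.

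Of 22 ligands, 11 were tested, 3 rose and 2 fell: Fgf13, an FGF relative that stays inside the cell, by -1.15, Pdgfa by -0.79, Nrg1 by 0.53 and Tgfa by 0.41. Of 17 adaptors and regulators of RAS, 4 rose and 2 fell, with Shc3 at 0.93, Grb2 at -0.56, Rasa2 at 0.47 and Rasa1 at 0.40. Of 22 tested genes from RAS to the targets of ERK, 5 rose and 5 fell, with Mapk3, which encodes ERK1, at -0.47, Elk4 at 0.45 and Ksr1, a scaffold of the cascade, at -0.40. Elk4 lost its call without WT replicate 2, cKO replicate 1 or cKO replicate 2, at values down to 0.39.

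**Figure D2:**
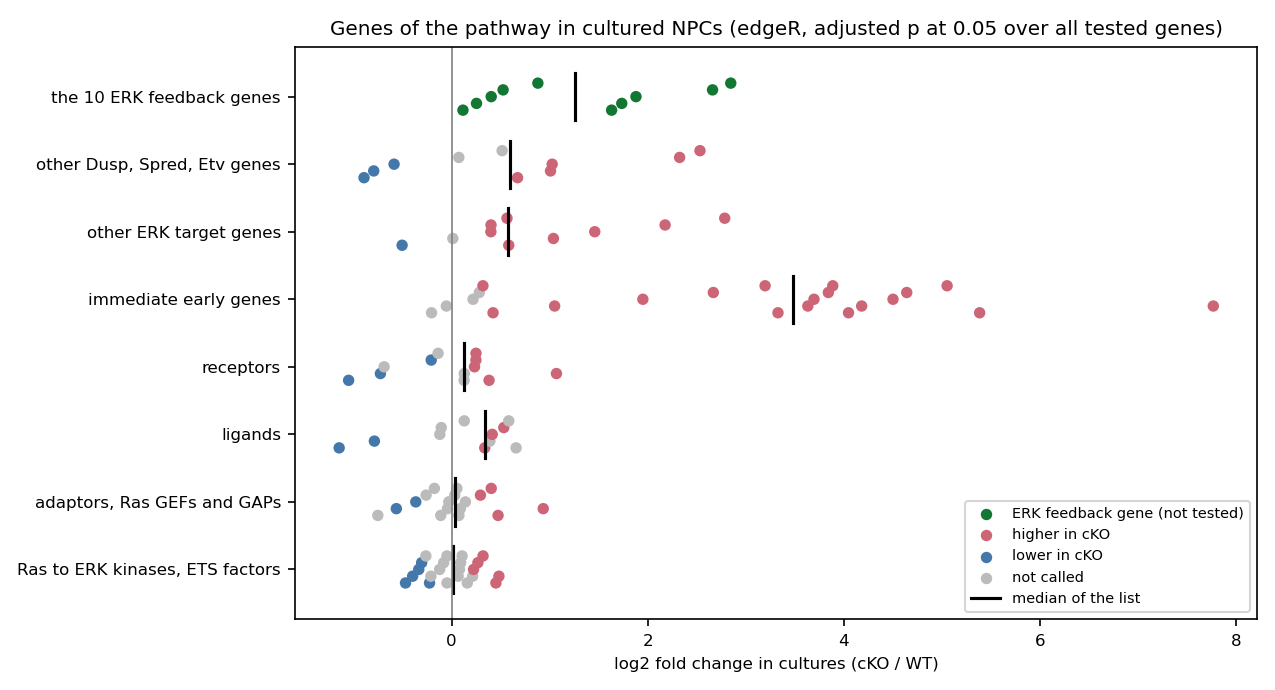
Log2 fold change of cKO over WT cultures for the 82 tested pathway genes and 22 immediate early genes, 1 point per gene and 1 row per list, red where higher and blue where lower by edgeR at an adjusted p of 0.05, grey where not called, with the 10 feedback genes in green and the median of each list as a bar. The feedback genes and most other ERK targets lie to the right of 0, while receptors, ligands, adaptors and the cascade lie on both sides, from -1.15 (Fgf13) to 1.07 (Erbb4).

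Other gene groups moved with genotype in the same cultures. Of 22 immediate early genes, which respond to ERK and to several other signals including cell handling, 18 rose and none fell by the same test, and their sum was 470 to 548 CPM in WT and 2565 to 2927 CPM in cKO. All 20 markers of G2 and M phase rose (291 to 373 against 530 to 767 CPM in sum), 11 of 19 markers of S phase rose, 5 of 6 tested astrocyte markers fell (4041 to 4458 against 2447 to 2756 CPM) and 4 of 7 markers of oligodendrocyte precursors rose (2179 to 2507 against 3008 to 3286 CPM). Of 7 tested markers of migrating neurons 5 fell and none rose (418 to 495 against 265 to 272 CPM), of 9 of immature neurons 4 fell and 3 rose (925 to 1015 against 717 to 746 CPM), and of 7 of GE cells 4 fell and none rose (76.1 to 78.3 against 54.5 to 60.7 CPM). Apical progenitor markers were abundant in both genotypes, with 4 of 13 higher and 7 lower. Markers of the cell types with most Dusp6 or Spry1 in the embryo were low: summed markers of endothelial cells were 9.73 to 13.3 CPM in WT and 8.21 to 10.4 CPM in cKO, of microglia 0.891 to 1.70 and 1.86 to 2.68 CPM, and of meningeal fibroblasts 3.45 to 4.10 and 7.01 to 7.92 CPM. Of these markers 3 of 9 endothelial and 5 of 10 microglial genes were at 0 in every culture, and none of the 8 meningeal ones. The part of these groups in the values of the 10 genes was not tested.

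The embryos allowed the same genes to be read by cell type. After removal of barcodes with under 200 genes or over 10% mitochondrial reads, 8214 WT and 9560 cKO cells remained, with medians of 11705 and 11012.5 unique molecular identifiers (UMIs) per cell, and 22 barcodes occurred in both libraries. Clustering, made without the 10 genes and the other pathway genes, gave 27 clusters, which were named by markers: apical progenitor-like cells (APs, 955 WT and 1311 cKO), intermediate progenitor-like cells (IPs, 509 and 543), migrating neuron-like (2181 and 2437) and immature neuron-like cells (1716 and 1921), GE-like cells (1190 and 1637), and smaller groups like Cajal-Retzius cells, meningeal fibroblasts (which also carried the pericyte gene Vtn), endothelial cells, microglia and red blood cells. Clusters with 1374 WT and 1355 cKO cells were left unnamed. UMIs of a gene were summed over the cells of a class and scaled to CPM. Intervals are exact and cover counting error only, and a ratio whose interval leaves 0 on the log2 scale still rests on 1 embryo per genotype.

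In APs, the progenitors that line the ventricle, none of the 10 genes had an interval above 0 and 1 had an interval below it. Of 10368 genes with at least 200 UMIs in APs over both embryos, 15.1% lay above and 14.9% below. Only 4 of the 10 genes reached 200 UMIs there, so the count and the share are not over like sets. The ratio was below 1 for 9 of the 10 genes, and for 5 of 10 when each cell was weighted equally. The median log2 ratio of the 10368 genes was -0.005, and the share of them with a ratio below 1 was not computed. The summed level of the 10 genes in APs was 249 (WT) and 229 CPM (cKO), of which Spred1 and Spred2 made up 175 and 159 CPM. Cultures and embryos differ in growth conditions and library method, and these cannot be told apart.

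Dusp6 was read in 38 WT and 40 cKO UMIs of APs, or 2.95 and 2.10 CPM, a log2 ratio of -0.49 (-1.17 to 0.19). Dusp5 was barely present, at 13 and 17 UMIs, with a log2 ratio of -0.18 (-1.31 to 0.99). Dusp4 was the only one of the 10 with a ratio above 1, at 59 and 110 UMIs and 0.33 (-0.13 to 0.82).

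The Sprouty genes were also low in APs. Spry2 had 154 and 200 UMIs (10.5 CPM in cKO), with a log2 ratio of -0.19 (-0.50 to 0.13). Spry1, at 27 and 39 UMIs, gave -0.03 (-0.78 to 0.73) and Spry4, at 15 and 14 UMIs, -0.66 (-1.82 to 0.49).

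Spred1 was the best measured of the 10 in APs and the one with an interval below 0: 117 CPM in WT and 104 CPM in cKO, a log2 ratio of -0.16 (-0.26 to -0.06). Spred2 read 58.5 and 54.6 CPM, at -0.10 (-0.24 to 0.04). Etv5, with 559 and 816 UMIs, was at 43.4 and 42.8 CPM, and its log2 ratio of -0.02 (-0.18 to 0.14) had one of the narrowest intervals of the 10. Etv4, with 80 and 101 UMIs, read 6.21 and 5.30 CPM, at -0.23 (-0.67 to 0.21).

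**Figure D3:**
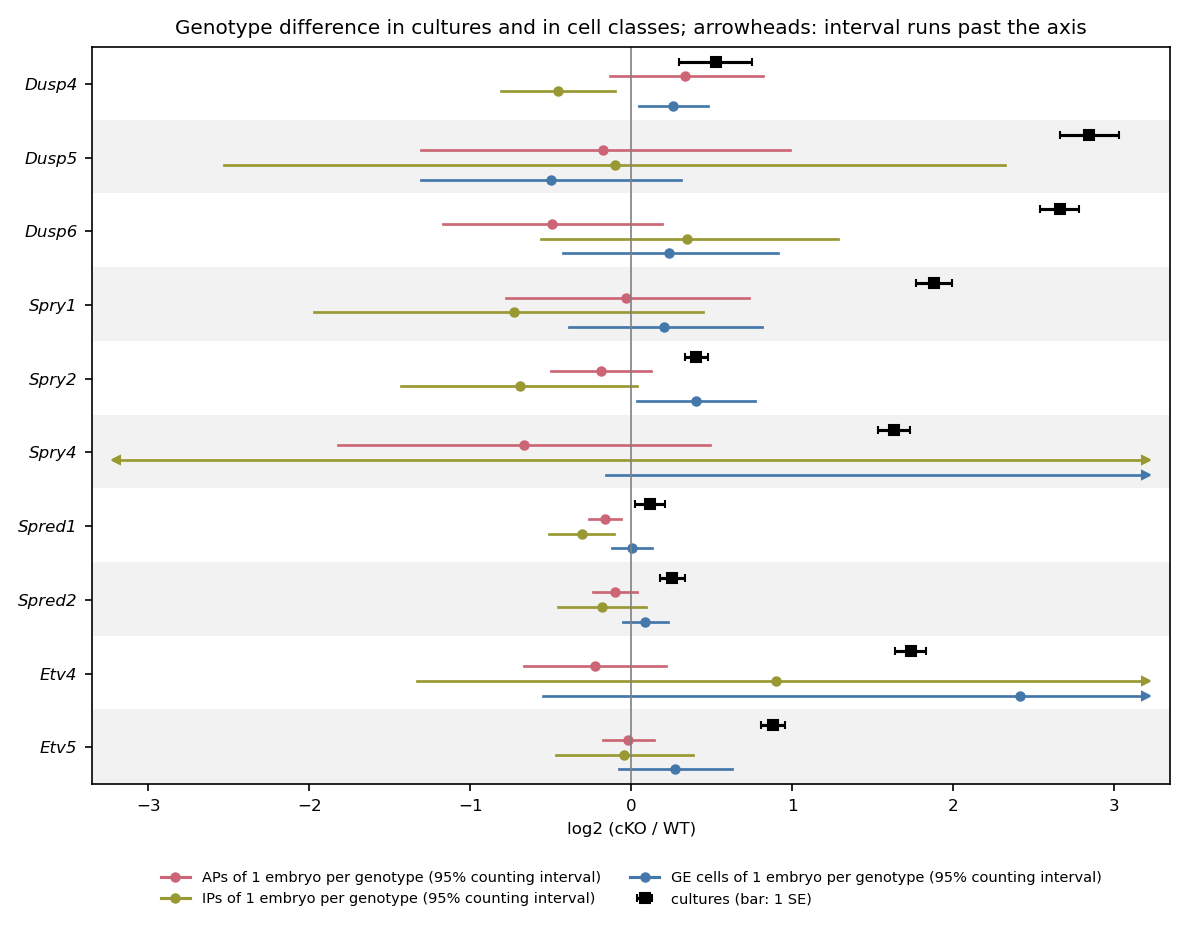
Log2 of cKO over WT for each of the 10 genes in cultures (black squares, bars 1 SE) and in APs, IPs and GE-like cells of 1 embryo per genotype (dots, bars exact 95% counting intervals; arrowheads mark intervals that run past the axis). Culture values reach 2.85 for Dusp5 and 2.66 for Dusp6, while the AP values run from -0.66 (Spry4) to 0.33 (Dusp4).

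Within APs some of the genes differed between phases of the cell cycle. When APs were grouped by S and G2/M marker scores, Etv5 was at 52.0 CPM in S-high, 51.6 CPM in G2/M-high and 17.9 CPM in the other cells of the WT embryo, against 50.3, 47.3 and 20.1 CPM in cKO. Spred2 was highest in S-high cells (81.8 and 68.2 CPM) and Spry2 in G2/M-high cells (15.8 and 12.2 CPM). Etv4 was at 11.5 and 5.92 CPM in S-high cells (43 and 41 UMIs), a log2 ratio of -0.95 (-1.61 to -0.30). In G2/M-high cells it was at 4.87 and 5.82 CPM (29 and 48 UMIs). Over 30 pairs of gene and cycle group, the interval lay above 0 in 0 and below it in 5. The share over all genes was not computed for these groups. The S-phase markers summed to 1762 CPM in WT and 2063 CPM in cKO APs.

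The 3 AP clusters were also read apart. Over 30 pairs of gene and cluster, 1 interval lay above 0 and 3 below it. No share over all genes was computed here. In the cluster led by Tnc, Hes5 and Tshr, Etv5 was at 32.0 (WT) and 39.6 CPM (cKO), a log2 ratio of 0.31 (0.06 to 0.56). In the cluster led by mitotic genes such as Aurkb and Plk1, Etv5 was at 56.6 and 48.9 CPM, a log2 ratio of -0.21 (-0.42 to 0.00). The difference between these clusters was not tested. The last AP cluster had medians of 2696 WT and 2937.5 cKO UMIs and carried haemoglobin UMIs. Without it, the ratio was again below 1 for 9 of 10 genes. Red blood cell markers in APs summed to 89.8 (WT) and 295 CPM (cKO), and of the 10 genes only Dusp4, Spred1 and Spred2 had a UMI in red blood cells themselves, with 4 or fewer in either embryo. The immediate early genes, which were higher in cKO cultures, were lower in cKO APs, at 1692 and 1371 CPM in sum with a log2 ratio of -0.30 (-0.33 to -0.28); their part in the values of the 10 genes was not tested.

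GE-like cells are not a target of Emx1-Cre. Syncrip itself was at 307 (WT) and 266 CPM (cKO) in them, a log2 ratio of -0.21 (-0.27 to -0.14). Its log2 ratio was 0.24 (0.20 to 0.28) in migrating neuron-like cells and 0.17 (0.12 to 0.21) in immature neuron-like cells. Of the 10 genes, 9 had a ratio above 1 in GE-like cells, and the intervals of Dusp4 and Spry2 lay above 0. Of 9811 genes with at least 200 UMIs, 11.4% lay above and 10.9% below, and 5 of the 10 genes reached 200 UMIs. The median log2 ratio of the 9811 genes was 0.006, and the share of them with a ratio above 1 was not computed. Dusp4 was at 28.1 (WT) and 33.6 CPM (cKO), a log2 ratio of 0.26 (0.05 to 0.47), and Spry2 at 9.35 and 12.3 CPM, 0.40 (0.04 to 0.77), which was 0.10 with each cell weighted equally. Spry4 had 0 and 6 UMIs and Etv4 1 and 7, and Dusp5 was the exception with -0.50 (-1.31 to 0.31). Without Spry4, which had no UMI in WT, 8 of 9 ratios were above 1 in the main setting and 6 of 9 with each cell weighted equally.

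In the later stages of the excitatory lineage no interval lay above 0. Of the 10 genes, 3 reached the 200 UMIs required for the shares below in IPs, 5 in migrating neuron-like and 7 in immature neuron-like cells. In IPs the intervals of Dusp4 (log2 ratio -0.45) and Spred1 (-0.31) were below 0, with 10.8% of 8412 genes above and 10.7% below. Among migrating neuron-like cells this held for Dusp4 (-0.37), Spred1 (-0.18) and Spred2 (-0.17), with 16.8% of 10760 genes above and 18.2% below. In this class 1 cluster held 167 WT and 525 cKO cells. Dusp4 was at -0.39 (-0.55 to -0.22) in the cluster of 996 WT and 975 cKO cells. It was at -0.32 (-0.47 to -0.16) in that of 1018 and 937 cells. The part of the uneven cluster in the ratios was not tested. Among immature neuron-like cells it held for Etv5 (-0.68), Spred2 (-0.27) and Spred1 (-0.17), with 14.6% of 10955 genes above and 17.9% below.

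Each of the 10 genes had its own distribution over cell types. Dusp4 was a gene of neurons: it was highest in migrating neuron-like cells, at 61.8 (WT) and 47.8 CPM (cKO), followed by Cajal-Retzius-like (42.2 and 47.1 CPM), immature neuron-like (33.6 and 31.3 CPM) and GE-like cells (28.1 and 33.6 CPM). APs held 4.58 and 5.78 CPM. The first and the second of these classes did not overlap in WT but did in cKO.

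Dusp6 was highest outside the neural lineage, in endothelial-like cells at 135 (WT) and 108 CPM (cKO) and in microglia-like cells at 126 and 121 CPM, which overlapped. Meningeal fibroblast-like cells followed at 61.4 and 72.7 CPM, then immature neuron-like cells at 21.9 and 19.8 CPM. In all other classes but red blood cells, which had no UMI in WT, it was between 1.99 and 3.06 CPM in WT. Dusp5 reached 12.3 CPM in WT endothelial-like cells on 15 UMIs and 1.84 CPM in cKO on 2. In Cajal-Retzius-like cells it had 0 UMIs in WT, which allows up to 3.42 CPM, and 10 in cKO (7.99 CPM).

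Spry1, Spry2 and Spry4 all had their highest value in meningeal fibroblast-like cells of the WT embryo. For Spry1 and Spry4 this class overlapped with endothelial-like cells, and for Spry2 it was apart from the next class. Spry1 was at 73.7 CPM in meningeal fibroblast-like and 46.9 CPM in endothelial-like cells, against 49.2 and 30.3 CPM in cKO. It was under 5 CPM in each class of the excitatory lineage. Spry4 was at 39.6 and 28.8 CPM in those same classes of the WT embryo and 21.1 and 30.3 CPM in cKO, and at 1.16 CPM or less elsewhere in WT. Spry2 was at 38.2 and 28.1 CPM in meningeal fibroblast-like cells, and its next classes (endothelial, microglia, APs and GE in WT) overlapped one another.

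Spred1 and Spred2 were spread over all classes but red blood cells. Spred1 was at 131 CPM in WT meningeal fibroblast-like cells, 117 CPM in APs and 115 CPM in microglia-like cells, which overlapped, and at 86.8, 104 and 110 CPM in cKO. The highest value of Spred2 was in endothelial-like cells, at 79.8 and 97.4 CPM, with immature neuron-like cells at 71.2 and 59.1 CPM and GE-like cells at 68.8 and 73.1 CPM. These 3 classes overlapped in WT, while in cKO they were apart, with GE-like above immature neuron-like cells.

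Etv5 was highest in microglia-like cells and APs of the WT embryo, at 44.5 CPM on 17 UMIs and 43.4 CPM, which overlapped. APs were the highest class in cKO, at 42.8 CPM, and overlapped with microglia-like cells at 26.2 CPM. IPs held 12.4 and 12.1 CPM, near GE-like cells at 10.3 and 12.4 CPM. Among neural classes Etv4 was nearly confined to APs, at 6.21 and 5.30 CPM, with less than 1 CPM in IPs, neurons and GE-like cells, and it was at 13.6 and 8.21 CPM in meningeal fibroblast-like cells on 10 and 7 UMIs.

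**Figure D4:**
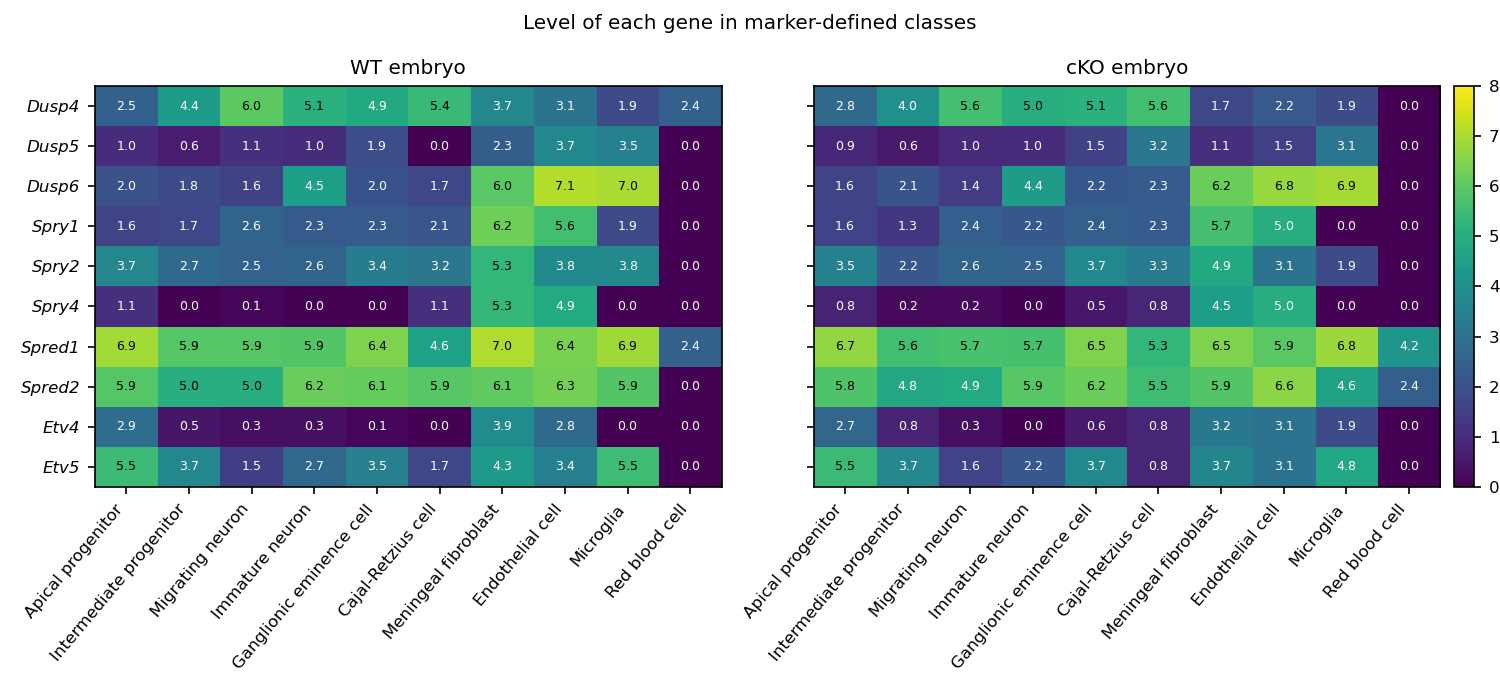
Colour map of the level of each of the 10 genes, log2(CPM + 1) of the UMIs summed over a class, in the 10 marker-named classes of the WT embryo (left) and the cKO embryo (right), with the value printed in each cell. Dusp6 is dark in WT APs at 2.95 CPM and bright in WT endothelial-like cells at 135 CPM, and Etv4 is dark in the neural classes other than APs.

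The pattern of each gene over cell types was compared with that of 14289 genes by Pearson's r of log2(CPM + 1). It was taken over 16 points from 8 classes in both embryos. Red blood cells (54 WT and 55 cKO) were among these classes, and each of the 10 genes had 4 UMIs or fewer there in either embryo. Classes with fewer than 50 cells in an embryo were left out, namely endothelial-like (24 WT and 33 cKO) and microglia-like cells (31 and 49). Dusp6 was highest in these left-out classes, so its likeness does not cover them. Points of 1 embryo share a library, and the values describe likeness only. The closest patterns were Tagln2 for Etv4 (r = 0.99), Dym for Spred2 (0.98), Arhgap29 for Dusp6 (0.98), Trf for Spry1 (0.98), Slc31a1 for Spry2 (0.97), Atl3 for Spred1 (0.97), Shmt1 for Etv5 (0.96), 6430548M08Rik for Dusp4 (0.95) and Map3k15 for Dusp5 (0.89). Next in order came Slc9a3r1 and Daam2 for Etv4, Prkca and Lrrc4 for Spred2, Fam174b and Smim24 for Dusp6, Thsd1 and Myh9 for Spry1, and Gnas and Sept7 for Spry2. For Spred1 they were Sept10 and Prkaa1, for Etv5 Cenpi and Thoc3, for Dusp4 Tmem198 and Prtn3, and for Dusp5 Serpinc1 and Git1. Spry4 did not have enough UMIs for the search. None of the nearest genes was one of the 10. Among the 36 pairs of the 9 genes searched, 6 had r above 0.8, the highest being Spred1 with Spred2 (0.87), Dusp6 with Spry1 (0.86) and Spry1 with Spry2 (0.85), and the lowest was Dusp4 with Etv4 (-0.37).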

How the data were processed

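RNA-seq measured 3 WT and 3 cKO NPC cultures and scRNA-seq 1 embryo of each genotype; 3 LACE-seq libraries of the series were not analysed here. For RNA-seq the authors aligned reads to mm10 with HISAT2 and deposited raw counts per gene, without normalization; which program and annotation made the counts, and with what strand setting, was not stated in the sources used here. The scRNA-seq files hold unnormalized UMI counts for each gene in each barcode, which the authors made with Cell Ranger 7.0.0 (10x 3′ kit, version 3.1).

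The 10 genes and the lists of pathway and marker genes were chosen with earlier results of these data known. Cultures were fitted in R 4.3.3 with edgeR 4.0.16 (filterByExpr, TMM, robust quasi-likelihood, Benjamini-Hochberg adjustment over 14432 genes at 0.05); the study used DESeq2. The smallest p that an exact permutation test of 1 gene can give for 3 cultures against 3 is 0.1. Per-length levels divide by the merged exons of GENCODE M21. Barcodes with 200 genes or more and no more than 10% of UMIs from mitochondrial genes were clustered in Seurat 5.3.0 (genes in at least 3 cells, 2000 variable genes, 30 principal components, 20 neighbours, resolution 0.8) with 169 genes held out. Clusters were named where at least 3 markers were raised 1.5-fold, the mean standardized marker level reached 0.5 and no more markers of another class stood among the 10 leading genes; these limits were chosen with the clusters in view. Scrublet in scanpy 1.11.5 called 308 WT and 451 cKO doublets, removed only as an alternative. Class levels are summed UMIs with exact Poisson intervals, and ratios have exact conditional (Clopper-Pearson) intervals at 95%. Where a class held 0 UMIs, the upper limit is that of 3 UMIs. For shares of all genes, genes with at least 200 UMIs in a class over both embryos were used.

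All 10 genes are named in every culture and class; of each pathway list, up to 4 called genes of at least 5 CPM with the largest absolute log2 fold change, 1 of which is not reported here; and the 3 nearest patterns in the search over cell types. Alternatives were RLE and upper quartile scaling, other count filters, DESeq2 1.42.0, limma-voom (limma 3.58.1), a replicate block, sex as covariate, each culture left out, clustering at 0.4 and 1.2, no doublets, stricter cell filters, another UMI total, equal weights for cells and for cell cycle groups, and, added after seeing the data, APs less their shallowest cluster. Both procedures were tested on simulated data.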

Additional observations from a re-analysis of the deposited data

Results flagged for a closer look

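For 8 of the 10 genes every cKO culture was above every WT culture while the ratio in APs, cKO over WT embryo, was below 1 in the main setting. This contrast picked them out for a closer look; the difference between culture and embryo was not tested, since there was 1 embryo per genotype. The log2 ratios in APs were -0.66 for Spry4, -0.49 for Dusp6, -0.23 for Etv4, -0.19 for Spry2, -0.18 for Dusp5, -0.10 for Spred2, -0.034 for Spry1 and -0.018 for Etv5. The counting interval of each included 0. Over all 14432 genes tested in culture, 25.7% had all cKO cultures above all WT cultures. The median log2 ratio in APs was -0.005 over 10368 genes. The share of all genes with both traits was not computed. With each cell weighted equally, 5 of all 10 genes had a ratio below 1 in APs.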

How the results depend on the processing

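The log2 fold changes of the 10 genes in culture kept their direction in 140 of 140 alternative values, and the number with no overlap between genotypes was 8 in the 8 settings that kept all cultures and 8 to 9 with 1 culture left out. Dusp4 ran from 0.26, without WT replicate 1, to 0.71, and Spred1 from 0.04 to 0.21. edgeR called 5701 genes; the other settings gave 5532 to 6405, and leaving out 1 culture 4108 to 6345. Of the pathway genes, 46 were called in the main setting, 46 to 49 in the others and 35 to 50 with 1 culture left out. With replicate number as a block, 6405 genes were called and the count of the 10 genes stayed at 8. Deviations of same-numbered cultures had r = 0.30, -0.03 and 0.08 across genes. Those of differently numbered cultures ran from -0.35 to 0.32, so the numbers were not taken as pairs. In APs 79 of 80 values moved by less than their counting interval, and the count with an interval above 0 was 0 in each of 6 settings. The exception was Spred2, at 0.12 with each cell weighted equally. In GE-like cells the exception was Dusp6, at -0.53 in that setting. Within their intervals, equal weights for cells also put Dusp5 at 0.22 and Spry1 at 0.31 in APs and Spry2 at 0.10 in GE-like cells. Etv5 in APs ran from -0.05 to 0.04 over the alternatives. Equal weights for cells or cell cycle groups give no interval, and 8 ratios against 0 UMIs were left out. The low UMI counts of Dusp5, Spry1 and Spry4 limit what could be seen in APs, and 1 embryo per genotype gives no error between embryos.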

Other observations

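Other genes of the pathway that moved in culture were also read in APs, where the intervals cover counting error only. Over all 10368 genes with at least 200 UMIs there, 15.1% of intervals lay above 0 and 14.9% below. Dusp1, at 29.1 (WT) and 32.3 CPM (cKO), had a log2 ratio of 0.15 (-0.04 to 0.34), Etv1 of -0.06 (-0.21 to 0.09) and Lrig1 of -0.01 (-0.20 to 0.19). Erbb4, which was higher in cKO cultures, stood at -0.38 (-0.49 to -0.27) in APs. Ntrk2, which was lower in cKO cultures, stood at 0.70 (0.61 to 0.80). Dusp10, also higher in cKO cultures, was at -0.27 (-0.41 to -0.13). Of the other genes named for culture, Shc3, Rasa2, Mapk3 and Pdgfa also had an AP interval on the side of 0 opposite to culture. The interval lay on the same side as in culture for Dusp7 (-0.40, -0.76 to -0.04), Grb2 (-0.28, -0.40 to -0.16) and Nrg1 (0.14, 0.12 to 0.16). Differences between culture and embryo were not tested.

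Egfr, chosen here after its values were seen, had 45 UMIs in WT and 130 in cKO GE-like cells, a log2 ratio of 1.14 (0.64 to 1.66), and 110 and 141 in APs, -0.21 (-0.58 to 0.17). Il17rd, a membrane protein that restrains FGF signals and was chosen in the same way, was at 6.94 and 9.87 CPM in GE-like cells, 0.51 (0.09 to 0.93).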
